A study of Mus musculus with 12 samples.

Results

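The mature oligodendrocyte and myelin genes are a set of 32 genes that oligodendrocytes use to build and maintain myelin. They were taken as the rows of a brain RNA-seq count table whose Ensembl identifiers map to 32 listed mouse symbols, and all 32 were found among its 53379 genes. RNA from brain tissue, which the series' design describes as injured cortex, was sequenced from wild-type (WT) C57BL/6J mice 6 months after injury. The injury was rlmTBI, a repetitive closed head injury of less than mild severity, and its control was sham. Diet was the other factor, a purified control diet fed continuously or a high-fat diet with fish oil given in cycles, so the diets differed in fat as well as in fish oil. The 4 groups are called sham and injured on the purified diet and sham and injured on fish oil. Each had 3 libraries, numbered 2, 3 and 4 in the labels. The labels give no age or sex, name the tissue only as brain, and do not tie a library to a separate animal, so p-values here measure the spread between libraries. Each library held 46362158 to 70754854 counts, and 19252 genes, among them all 32 members, had enough counts to be tested.

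Oligodendrocytes wrap axons in many layers of their own membrane, and this myelin lets nerve impulses jump along the axon between short gaps, the nodes. Myelin holds a small number of very abundant proteins and a membrane rich in galactolipids, and the genes for both are switched on together when a precursor cell matures, under factors such as Sox10, Olig1, Olig2 and Myrf. In the cerebral cortex most myelin lies in the deep layers and in the white matter beneath them.

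The 8 genes used here to define mature oligodendrocytes, Mbp, Mog, Mag, Mobp, Cnp, Opalin, Cldn11 and Ermn, were all detected in all 12 libraries. The 6 excitatory neuron and 6 upper cortical layer markers were detected in each library as well, at sums of 2702 to 5142 and 533 to 778 CPM, read counts scaled to a common effective library size. The summed level of the oligodendrocyte markers was 1220 to 3844 CPM. Compared per kilobase of exon, Mbp, which encodes the basic protein that holds the inner faces of the myelin membrane together, was the most abundant member with a mean level of 162 CPM per kilobase. Mobp, a second small basic myelin protein, followed at 84.5, and the carbonic anhydrase gene Car2, the lipid carrier gene Apod, the raft protein gene Mal and the pterin reductase gene Qdpr lay between 65.3 and 59.5 CPM per kilobase. Mog, Mag and Opalin, which encode membrane proteins of the sheath, stood at 22, 20.5 and 6.47. The lowest levels per kilobase were those of the choline phosphodiesterase gene Enpp6 at 0.980, the phosphatase inhibitor gene Ppp1r14a at 0.863 and the transcription factor gene Nkx6-2 at 0.305. Neighbours in this order are close beside their spread, since the range of Mal over the libraries, 28.3 to 107 CPM per kilobase, contains the means of Car2, Apod, Qdpr and Cnp.

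The sequence before the transcription start was available for 23 of the 32 members, from RefSeq on GRCm38.p6. It is shown for 5 members that define the cell type, each with a match to a form marked below. The factor whose motif was searched, Myrf, is itself a member. Of the other defining members, Cldn11 and Ermn had windows with 0 such matches, and Mbp had no sequence. A further Mag window, chr7:30914322-30914571, also held 0 and is not printed. The windows of 250 bases before each start were searched on both strands for CTGGCAC and CTGGTAC, the forms bound by Myrf, and for ACAAAG, a form bound by Sox10 and other Sox factors. A second Sox form, ACAATG, and the E-box CAGCTG were also searched and are not marked. Capitals mark matches, and a match on the other strand reads GTACCAG for CTGGTAC and CTTTGT for ACAAAG. The Mag window is chr7:30914923-30915172, the Mog window chr17:37023399-37023648 and the Opalin window chr19:41077114-41077363, all on the minus strand. The Cnp window is chr11:100574689-100574903 and the Mobp window chr9:120149492-120149706, both on the plus strand and cut to the 215 bases before the first annotated exon. Each is printed 5′ to 3′ in the direction of the gene.
Mag: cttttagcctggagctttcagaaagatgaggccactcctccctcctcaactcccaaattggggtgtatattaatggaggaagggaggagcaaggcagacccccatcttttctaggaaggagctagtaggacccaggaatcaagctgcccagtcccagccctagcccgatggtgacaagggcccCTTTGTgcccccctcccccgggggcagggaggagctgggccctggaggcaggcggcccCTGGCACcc
Mog: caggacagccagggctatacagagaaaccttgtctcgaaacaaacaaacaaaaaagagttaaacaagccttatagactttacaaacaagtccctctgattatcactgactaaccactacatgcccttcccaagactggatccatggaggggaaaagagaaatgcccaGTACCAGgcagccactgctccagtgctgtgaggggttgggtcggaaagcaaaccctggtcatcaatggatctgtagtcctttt
Opalin: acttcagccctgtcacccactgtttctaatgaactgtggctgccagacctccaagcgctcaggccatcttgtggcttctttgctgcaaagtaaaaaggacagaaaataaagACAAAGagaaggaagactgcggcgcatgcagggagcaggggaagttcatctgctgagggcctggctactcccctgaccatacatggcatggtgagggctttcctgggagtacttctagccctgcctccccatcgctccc
Cnp: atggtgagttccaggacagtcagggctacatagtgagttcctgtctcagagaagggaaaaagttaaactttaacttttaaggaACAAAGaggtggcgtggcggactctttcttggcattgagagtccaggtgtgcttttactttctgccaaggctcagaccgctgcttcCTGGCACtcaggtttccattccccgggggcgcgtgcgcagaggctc
Mobp: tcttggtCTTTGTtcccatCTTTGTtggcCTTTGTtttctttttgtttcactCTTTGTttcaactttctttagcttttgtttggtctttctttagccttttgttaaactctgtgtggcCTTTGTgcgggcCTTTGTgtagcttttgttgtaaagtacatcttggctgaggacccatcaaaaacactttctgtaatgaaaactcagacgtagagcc

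A Myrf form was present in 4 of the 23 members, Cnp, Hapln2, Mag and Mog, against 6.79% of 27025 genes with windows of the same length. In the Mag window shown it begins 9 bases before the start, in Cnp 81 bases and in Mog, on the other strand, 83 bases. Distances run to the RefSeq start at the end of the full window, which in Cnp lies beyond the end of the printed bases. ACAAAG was present in 7 of 23 members, Apod, Cnp, Gjb1, Mag, Mobp, Opalin and Tspan2, against 18.6% of all genes. Mobp alone held 6 copies, all on the other strand, and Opalin held 1 copy that begins 139 bases before the start. ACAATG was present in 5 of 23 members against 12.2% of all genes, and CAGCTG in 3 of 23 against 14.7%. Matches are a description of these letters in these windows.

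Libraries of the same group differed widely in their level of myelin transcripts, and nearly all members were high or low in the same libraries. Each member was expressed as log2 CPM minus its mean over the 12 libraries, and the median over the 32 members was taken in each library. In the purified sham group this median was 0.31, -0.70 and 0.62 in libraries 2, 3 and 4, and in the purified injured group -0.13, -0.60 and -0.66. In the fish oil sham group it was 0.52, 0.68 and -0.22, and in the fish oil injured group 0.67, -0.72 and 0.17. Every group but the purified injured therefore held both high and low libraries. Purified sham 4, fish oil sham 2 and fish oil sham 3 had all 32 members above their own medians over the 12 libraries, whereas purified sham 3 had 0 and fish oil injured 3 had 1.

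**Figure D1:**
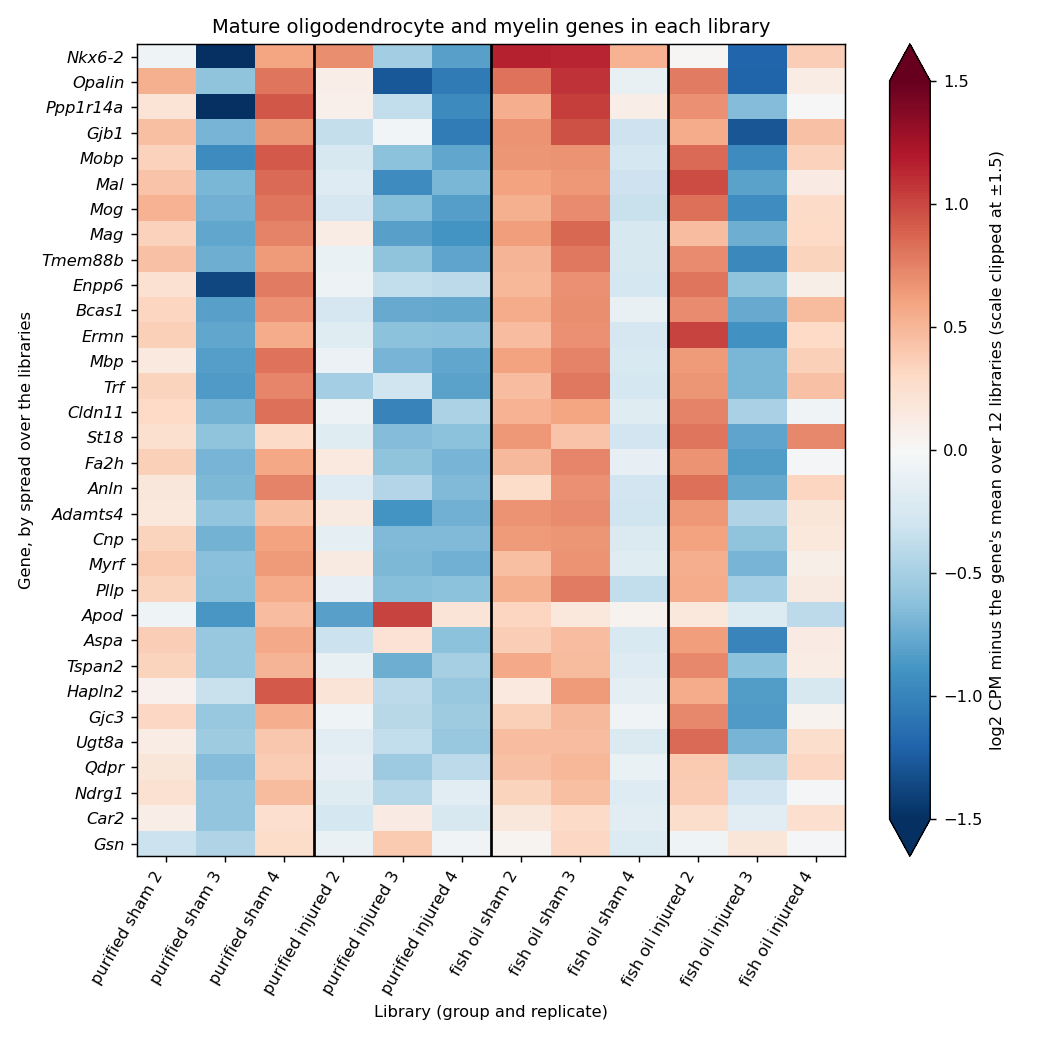
Level of each of the 32 genes in each of the 12 libraries, as log2 CPM minus the gene's mean over the libraries (colour scale clipped at 1.5 either side), with genes ordered by their spread and vertical lines between groups. Purified sham 3, purified injured 3 and 4 and fish oil injured 3 are low for most genes, and Apod, Car2 and Gsn depart from this.

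The 5 libraries with the highest values, purified sham 2 and 4, fish oil sham 2 and 3 and fish oil injured 2, were the same for 18 of the 32 members. The 4 lowest, purified sham 3, purified injured 3 and 4 and fish oil injured 3, were the same for 25 of 32. The maximum fell in fish oil sham 3 for 13 members and in fish oil injured 2 for 11, and the minimum in purified sham 3 for 14 and in fish oil injured 3 for 11. These are descriptions of points that share a library and its scaling factor. In bulk tissue, fewer oligodendrocytes and less myelin RNA per oligodendrocyte cannot be told apart. Members differed in how far they moved: the SD of log2 CPM over the libraries was 0.94 for Nkx6-2, 0.85 for Opalin and 0.79 for Ppp1r14a, and 0.36 for Ndrg1, 0.28 for Car2 and 0.26 for Gsn.

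Transcripts of tissue that borders the cortex also differed between libraries of a group. On the purified diet the 7 choroid plexus genes summed to 25.7 to 476 CPM in sham and 20.9 to 49.3 CPM in injured libraries, and on fish oil to 31.7 to 60.7 and 216 to 2641 CPM. Purified sham 3 and fish oil injured 3, the lowest libraries for myelin genes, held 476 and 2641 CPM of them, but fish oil injured 4, with 2492 CPM, had a myelin median of 0.17. The 7 striatal neuron genes summed to 616 CPM in purified sham 4 and 1541 CPM in fish oil sham 2, both high in myelin genes, and to at most 305 CPM elsewhere, including fish oil sham 3 and fish oil injured 2. The 5 olfactory bulb genes, of which Eomes and Tbx21 were at 0 in some library, summed to 763 CPM in purified injured 3 and at most 31.3 CPM in the others. The 7 meningeal fibroblast genes were highest in purified injured 4 (176 CPM), fish oil injured 3 (161 CPM) and fish oil sham 4 (147 CPM), and lay between 30.5 and 71.7 CPM in the rest. The part of these tissues in the differences between groups was not tested.

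After injury on the purified diet, 29 of the 32 members had a log2 fold change below 0, with a median of -0.59 against 0.003 over all 19252 genes tested, of which 49.4% were below 0. No member passed the test (edgeR quasi-likelihood test with Benjamini-Hochberg adjustment over all tested genes, lowest adjusted p of a member 0.776), and 0% of all genes did. At an unadjusted p under 0.05 there were 0 members and 1251 genes. The member median averaged 0.08 ± 0.69 (SD, n = 3) in the sham and -0.46 ± 0.29 in the injured libraries. Groups overlapped for every member: 0 of 32 were lower in all 3 injured than in all 3 sham libraries, against 6.68% of all genes, and 0 were higher, against 4.93%. The median was -0.51 without the 2 libraries richest in olfactory bulb and striatal genes, purified injured 3 and fish oil sham 2, and -0.29, with 26 members below 0 and 1 at an unadjusted p under 0.05, without purified sham 4. Without purified sham 3 it was -0.88, with 30 members below 0 and 16 of 32 at an unadjusted p under 0.05 against 725 of 19867 genes, and 0 members passed the adjusted test. Members move together between libraries and purified sham 3 was their lowest sham library, so this count is no test of the set. In the same comparison 6 of 6 endothelial markers were below 0 (median -0.39, 3 at an unadjusted p under 0.05) and 5 of 6 excitatory neuron markers (median -0.37, 0 at that p), and 0 of either passed. Striatal neuron markers were below 0 in 6 of 7 cases (median -0.93) and choroid plexus markers in 6 of 7 (median -1.49), with 0 passing. Microglia markers were above 0 in 5 of 6 cases (median 0.20), and so were 4 of 4 olfactory bulb markers tested (median 5.26). The striatal median was -1.75 for injury on fish oil, 1.24 and 0.55 for diet in sham and injured mice, and -0.83 for the interaction. The part of these lists in the difference of the myelin genes was not tested.

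After injury on the fish oil diet, 30 of 32 log2 fold changes of members were below 0, at a median of -0.17 against -0.01 over all genes. No member passed (lowest adjusted p 0.999 by the same edgeR test), and 0% of all genes did, while 0 members and 670 genes had an unadjusted p under 0.05. The member median averaged 0.33 ± 0.48 in the sham and 0.04 ± 0.70 in the injured libraries. Nkx6-2 was the 1 member lower in all 3 injured than in all 3 sham libraries, against 5.23% of all genes, and 0 were higher, against 4.97%. The size moved with single libraries: the median was -0.56 without fish oil injured 2, -0.40 without fish oil sham 4, -0.06 without fish oil sham 3 and -0.11 without both fish oil sham 2 and purified injured 3. Without fish oil injured 3 it turned to 0.06, with 13 of 32 members below 0.

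**Figure D2:**
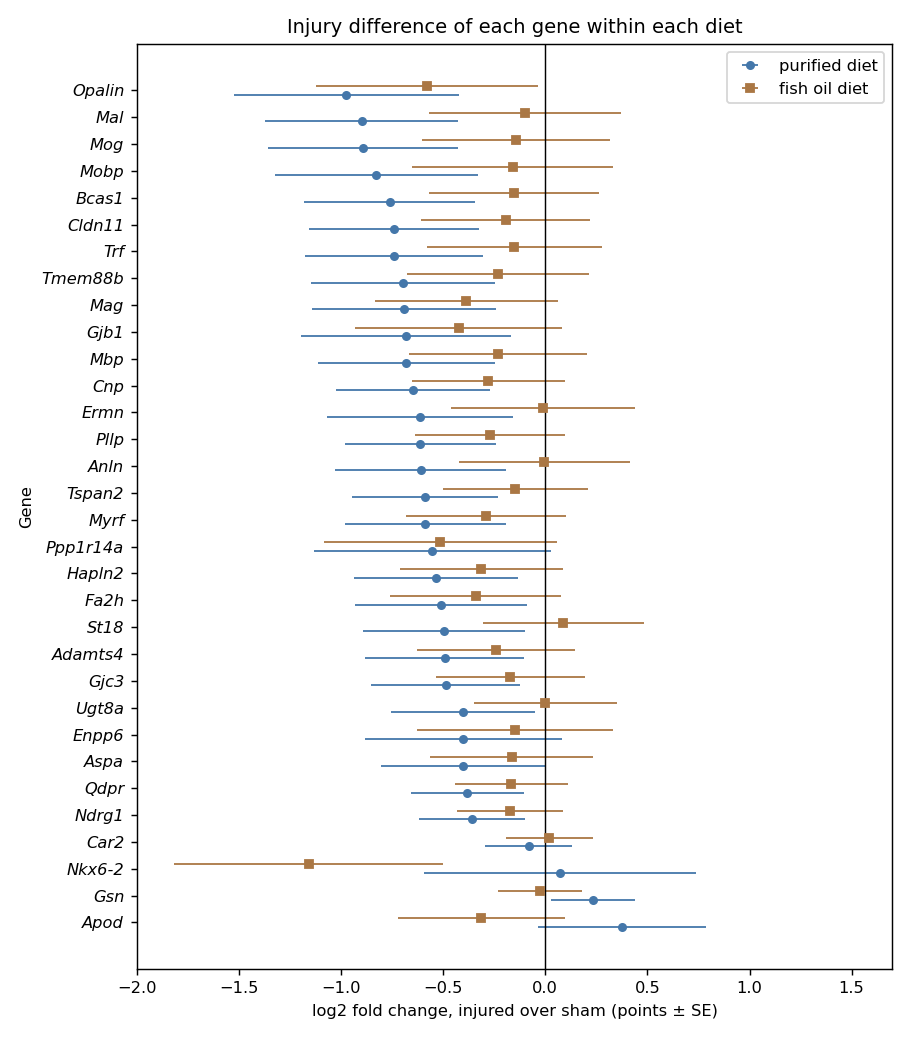
Log2 fold change of injured over sham libraries for each of the 32 genes, on the purified diet (blue circles) and the fish oil diet (brown squares), with bars of 1 standard error either side and genes ordered by the value on the purified diet. Most points lie left of 0 on both diets, and no gene passed the test on either.

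Between diets most members had positive log2 fold changes, fish oil over purified, and no member passed in sham or in injured mice. In sham mice 31 of 32 members lay above 0 with a median of 0.21 (0% of all genes called, lowest adjusted p of a member 0.934 by edgeR), and in injured mice 29 of 32 with a median of 0.58 (0% called, lowest adjusted p 0.466). Over all genes these medians were both 0.01. In sham mice 0 members and 710 genes, and in injured mice 1 member and 2063 genes, had an unadjusted p under 0.05. No member was higher or lower without overlap between groups in sham mice, against 6.31% and 7.45% of all genes, nor in injured mice, against 5.6% and 5.98%. The sham median rested on few libraries, at -0.08 with 24 members below 0 without purified sham 3, 0.47 without purified sham 4, 0.43 without fish oil sham 4 and 0.04 without fish oil sham 3. In injured mice the median was 0.24 without fish oil injured 2, and 0.86 without fish oil injured 3, where 15 of 32 members had an unadjusted p under 0.05 against 2021 of 19779 genes and 0 passed the adjusted test. Fish oil injured 3 was the lowest library of its group for the members, so this count too is no test of the set. The comparisons share libraries with those of injury: the purified injured group, whose member medians were all below 0, enters both the injury difference on the purified diet and the diet difference in injured mice.

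The difference between the diets in the injury effect was tested as an interaction, the injury effect on fish oil minus that on the purified diet. Its median over the members was 0.33, with 29 of 32 above 0, against -0.02 over all genes. No member passed (lowest adjusted p 0.838 by edgeR, 0% of all genes called), and 0 members and 1108 genes had an unadjusted p under 0.05. A difference between the diets in the injury effect on these genes was therefore not shown. The median was 0.63 without fish oil injured 3, 0.61 without purified sham 3, 0.58 without purified injured 2 and 0.50 without fish oil sham 3, and it was 0.21 without purified injured 4, 0.10 without fish oil sham 4, 0.06 without purified sham 4 and 0.05 without fish oil injured 2. With the injury effect averaged over both diets 30 of 32 members were below 0 (median -0.43), and with the diet effect averaged over injury states 31 were above 0 (median 0.41). Each average also had 0 members and 0% of all genes called by edgeR, and 0 members at an unadjusted p under 0.05.

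Among the proteins of the myelin sheath, Mbp (ENSMUSG00000041607.16, chr18:82475146-82585637) stood at 1391, 708 and 2213 CPM in purified sham and 1184, 775 and 732 CPM in purified injured libraries. On fish oil, Mbp was at 1914, 2111 and 1075 CPM in sham and 1950.4, 785 and 1608 CPM in injured libraries. Values are in the order of libraries 2, 3 and 4, here and for the other genes. The injured libraries on the purified diet lay between the lowest and the middle sham library, and in both fish oil groups a single library, sham 4 or injured 3, lay far below the others. Its log2 fold change after injury was -0.68 ± 0.44 (SE; edgeR adjusted p = 0.791) on the purified diet and -0.23 ± 0.43 on fish oil. Mog (ENSMUSG00000076439.12, chr17:37010743-37023398), an immunoglobulin-like protein on the outermost face of the sheath, stood at 48.9, 20.6 and 59.4 CPM in purified sham and 28.4, 21.8 and 19.1 CPM in purified injured libraries. On fish oil, Mog was at 49.3, 55.5 and 27 CPM in sham and 60.2, 17.8 and 41.4 CPM in injured libraries. The mean was 43 ± 20.04 CPM (SD, n = 3) in purified sham and 23.1 ± 4.8 in purified injured libraries, 43.9 ± 15 in fish oil sham and 39.8 ± 21.3 in fish oil injured libraries. Mog had the smallest p of all members after injury on the purified diet, with a log2 fold change of -0.89 ± 0.47 (edgeR adjusted p = 0.776), yet purified sham 3 lay below purified injured 2 and 3. On fish oil the difference was -0.14 ± 0.46, and injured 2 was the highest of all 12 libraries and injured 3 the lowest.

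Mag (ENSMUSG00000036634.15, chr7:30899176-30914873), the sialic acid-binding adhesion molecule that faces the axon, stood at 96.7, 44.5 and 128 CPM in purified sham and 82.3, 43.5 and 40.9 CPM in purified injured libraries. On fish oil, Mag was at 117, 139 and 64.7 CPM in sham and 105, 45.7 and 94.2 CPM in injured libraries. Purified sham 3 and fish oil injured 3 were again low, and the log2 fold change after injury was -0.69 ± 0.45 on the purified diet. Mal (ENSMUSG00000027375.14, chr2:127633226-127656695), a raft protein that sorts myelin components to the membrane, stood at 204, 93.8 and 272 CPM in purified sham and 133, 78.6 and 94.2 CPM in purified injured libraries. On fish oil, Mal was at 230.0, 237 and 122 CPM in sham and 297, 86.4 and 165 CPM in injured libraries. All 3 purified injured libraries lay below purified sham 2 and 4, and the lowest, injured 3, lay below every sham library of either diet. Mal differed by -0.90 ± 0.47 after injury on the purified diet (edgeR adjusted p = 0.778) and by -0.10 ± 0.47 on fish oil, and its interaction, the second smallest p among members, was 0.80 ± 0.66 (adjusted p = 0.842). Opalin (ENSMUSG00000050121.8, chr19:41061710-41077113), a transmembrane protein found in oligodendrocytes of the central nervous system, stood at 23.9, 10.9 and 28.8 CPM in purified sham and 17.6, 6.83 and 7.9 CPM in purified injured libraries. On fish oil, Opalin was at 29.1, 35.1 and 15.3 CPM in sham and 28.3, 7.12 and 17.8 CPM in injured libraries. It had the most negative log2 fold change of any member on the purified diet, -0.97 ± 0.55, and was also lower on fish oil, at -0.58 ± 0.54. Relative to the median of the members in the same library, Opalin stood at -0.67 (log2) in purified injured 3, -0.49 in fish oil injured 3 and -0.40 in purified injured 4, but at 0.10 in purified sham 3, the other low library. The remaining genes of this kind, Mobp, Cnp, Pllp and Tspan2, had log2 fold changes of -0.83, -0.65, -0.61 and -0.59 after injury on the purified diet and of -0.16, -0.28, -0.27 and -0.15 on fish oil. Cnp encodes the phosphodiesterase that keeps cytoplasmic channels in myelin open, and Pllp and Tspan2 encode membrane-spanning proteins of the sheath. Of the exon bases of Pllp, 54.2% overlap Gm45767 on the opposite strand, so without a stated strand setting its counts may include reads of that gene.

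**Figure D3:**
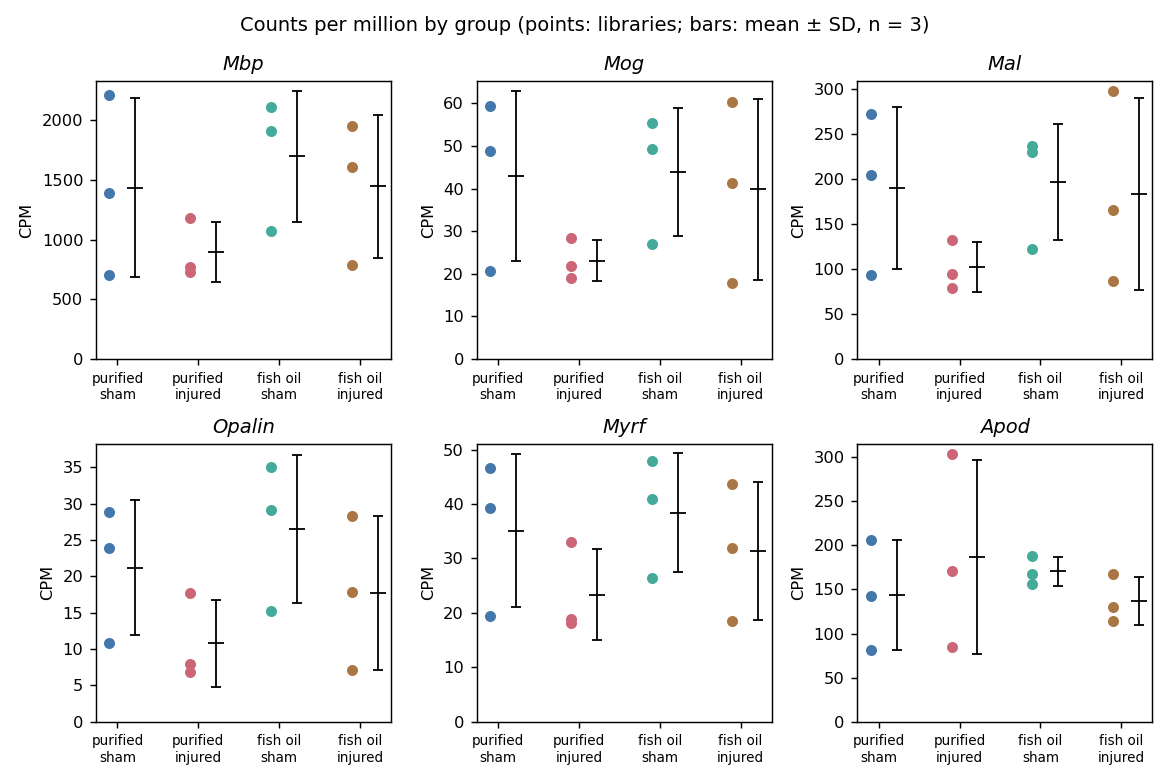
Level in CPM (linear axis from 0) of Mbp, Mog, Mal, Opalin, Myrf and Apod in each library (points) by group, with the group mean and SD (bars, n = 3). The groups overlap for each of the 6 genes, and Apod alone has its highest value in a purified injured library.

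Among the junction genes, Cldn11 (ENSMUSG00000037625.7, chr3:31149920-31164324), the claudin of the tight junctions between myelin layers, stood at 55.5, 27.6 and 80.4 CPM in purified sham and 42.9, 22.6 and 32.3 CPM in purified injured libraries. On fish oil, Cldn11 was at 64.9, 68.2 and 39.7 CPM in sham and 75.8, 32.1 and 43.4 CPM in injured libraries. Purified sham 4 was the highest library and purified injured 3 the lowest, and the log2 fold change after injury on the purified diet was -0.74 ± 0.42. Gjb1 (ENSMUSG00000047797.14, chrX:101376378-101385629), a connexin of the gap junctions that couple oligodendrocytes to astrocytes, stood at 6.38, 2.85 and 7.41 CPM in purified sham and 3.62, 4.52 and 2.24 CPM in purified injured libraries. On fish oil, Gjb1 was at 7.47, 9.03 and 3.75 CPM in sham and 6.85, 1.9 and 6.35 CPM in injured libraries. Fish oil sham 3 was highest and fish oil injured 3 lowest, and the fold changes after injury were -0.68 ± 0.51 on the purified diet and -0.42 ± 0.51 on fish oil. Gjc3, another connexin of these cells, had log2 fold changes of -0.49 ± 0.36 and -0.17 ± 0.36 in the same comparisons.

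Among the enzymes of myelin lipids, differences after injury on the purified diet were -0.40 to -0.51 on the log2 scale. Ugt8a (ENSMUSG00000032854.12, chr3:125865271-125938619), which adds galactose to ceramide to make the main galactolipid of myelin, stood at 49.1, 31.6 and 60.6 CPM in purified sham and 40.8, 35.2 and 30.7 CPM in purified injured libraries. On fish oil, Ugt8a was at 63.1, 62.8 and 39.2 CPM in sham and 82, 28.2 and 54.9 CPM in injured libraries. Purified injured 2 and 3 lay between the lowest and the middle purified sham library and injured 4 just below the lowest, with a log2 fold change of -0.40 ± 0.35, whereas both fish oil groups averaged 55 CPM with an SD of 13.7 in sham and 26.9 in injured mice. Fa2h, which hydroxylates the fatty acids of these lipids, and Aspa, which splits N-acetylaspartate into acetate for lipid synthesis, had log2 fold changes of -0.51 ± 0.42 and -0.40 ± 0.40 after injury on the purified diet. On fish oil these were -0.34 ± 0.42 and -0.16 ± 0.40. Enpp6 (ENSMUSG00000038173.15, chr8:46986887-47096762), a choline phosphodiesterase best known as a marker of newly formed oligodendrocytes, stood at 6.74, 2.21 and 9.91 CPM in purified sham and 5.46, 4.44 and 4.4 CPM in purified injured libraries. On fish oil, Enpp6 was at 8.16, 9.27 and 4.78 CPM in sham and 10.1, 3.79 and 6.14 CPM in injured libraries. Its lowest library was purified sham 3 and the 3 purified injured libraries were close together, and its log2 fold change was -0.40 ± 0.48 on the purified diet and -0.15 ± 0.48 on fish oil.

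Of the 3 transcriptional regulators, Myrf (ENSMUSG00000036098.15, chr19:10208272-10240748), the membrane-bound factor that switches on myelin genes and keeps them on, stood at 39.3, 19.4 and 46.6 CPM in purified sham and 33, 18.8 and 18.2 CPM in purified injured libraries. On fish oil, Myrf was at 40.9, 47.9 and 26.4 CPM in sham and 43.8, 18.5 and 31.9 CPM in injured libraries. Purified injured 3 and 4, fish oil injured 3 and purified sham 3 formed a low set from 18.2 to 19.4 CPM, and all other libraries were at 26.4 CPM or higher. The log2 fold change after injury was -0.59 ± 0.39 on the purified diet (edgeR adjusted p = 0.804) and -0.29 ± 0.39 on fish oil. St18 (ENSMUSG00000033740.17, chr1:6487231-6860940), a zinc finger factor of the oligodendrocyte lineage, stood at 10.5, 5.83 and 10.8 CPM in purified sham and 7.8, 5.67 and 5.8 CPM in purified injured libraries. On fish oil, St18 was at 14, 12 and 7.25 CPM in sham and 15.5, 5.14 and 14.7 CPM in injured libraries. It had the smallest p of any member between diets in injured mice, a log2 fold change of 0.87 ± 0.40 (edgeR adjusted p = 0.466), with fish oil injured 2 and 4 above and injured 3 below all purified injured libraries. Nkx6-2 (ENSMUSG00000041309.17, chr7:139579376-139582797), a homeodomain factor needed for normal myelin and paranodes, was the rarest member, at 0.463, 0.106 and 0.749 CPM in purified sham and 0.808, 0.326 and 0.260 CPM in purified injured libraries. On fish oil, Nkx6-2 was at 1.12, 1.11 and 0.710 CPM in sham and 0.491, 0.193 and 0.635 CPM in injured libraries. All 3 fish oil sham libraries lay above all 3 fish oil injured ones, and the log2 fold change was -1.16 ± 0.66 after injury on fish oil (edgeR adjusted p = 0.999) against 0.07 ± 0.67 on the purified diet. It also had the smallest p between diets in sham mice (1.15 ± 0.66, adjusted p = 0.934) and for the interaction (-1.23 ± 0.94, adjusted p = 0.838), and unlike Mal it was negative there. Of its exon bases 12.9% overlap Inpp5a on the opposite strand, and its standard errors were the largest of the set in each of these comparisons.

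Genes of iron, metabolism and the extracellular space differed in how closely they tracked the set. Trf (ENSMUSG00000032554.15, chr9:103204001-103230444), the iron carrier transferrin made by oligodendrocytes, stood at 6.1, 2.66 and 8.06 CPM in purified sham and 3.39, 3.93 and 2.76 CPM in purified injured libraries. On fish oil, Trf was at 6.66, 8.42 and 4.02 CPM in sham and 7.65, 2.98 and 6.56 CPM in injured libraries. Purified sham 3 was its lowest library and fish oil sham 3 its highest, but 63.5% of its exon bases, 2108 of 3320, are shared with Gm20425 on the same strand, so its counts are uncertain. Apod (ENSMUSG00000022548.14, chr16:31296192-31314808), a secreted lipid-binding protein also made by other cells, stood at 143, 81.8 and 206 CPM in purified sham and 85, 304 and 171 CPM in purified injured libraries. On fish oil, Apod was at 188, 168 and 156 CPM in sham and 167, 130.5 and 114 CPM in injured libraries. Purified injured 3, a library low in most members, had the highest level, and purified injured 2 the second lowest. The log2 fold change after injury was 0.38 ± 0.41 on the purified diet, -0.31 ± 0.41 on fish oil and -0.69 ± 0.58 for the interaction (edgeR adjusted p = 0.846), and on the purified diet it turned to -0.15 without purified injured 3.

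Car2 (ENSMUSG00000027562.12, chr3:14886273-14900770), a carbonic anhydrase that other brain cells also make, stood at 167, 103 and 185 CPM in purified sham and 129, 169 and 131 CPM in purified injured libraries. On fish oil, Car2 was at 176, 189 and 139 CPM in sham and 186, 138 and 186 CPM in injured libraries. Purified sham 3 was the lowest library at 103 CPM, and the others lay between 129 and 189, and the fold changes after injury were -0.08 ± 0.21 and 0.02 ± 0.21. Qdpr (ENSMUSG00000015806.12, chr5:45434021-45450236), which regenerates tetrahydrobiopterin, stood at 116, 65.5 and 134 CPM in purified sham and 94.1, 70.3 and 78 CPM in purified injured libraries. On fish oil, Qdpr was at 139, 145 and 96 CPM in sham and 135, 77.1 and 127 CPM in injured libraries. Its 4 lowest libraries were the 4 low ones of the set, and it had log2 fold changes of -0.38 ± 0.28 after injury on the purified diet and 0.27 ± 0.28 between diets in sham mice. Hapln2 (ENSMUSG00000004894.10, chr3:88021750-88027583), a link protein of the hyaluronan matrix around nodes, stood at 7.44, 5.62 and 13.4 CPM in purified sham and 8.13, 5.4 and 4.76 CPM in purified injured libraries. On fish oil, Hapln2 was at 7.85, 11 and 6.47 CPM in sham and 10.4, 3.97 and 6.02 CPM in injured libraries. Purified sham 4 was its highest library and fish oil injured 3 its lowest, and it was the 1 member below 0 between diets in sham mice, at -0.06 ± 0.40. After injury Hapln2 differed by -0.53 ± 0.40 on the purified diet, the proteoglycan-cleaving protease gene Adamts4 by -0.49 ± 0.39 and the stress-regulated gene Ndrg1 by -0.36 ± 0.26.

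In the cytoskeletal and signalling group, Bcas1 (ENSMUSG00000013523.13, chr2:170346991-170427845), a marker of oligodendrocytes in the course of myelination, stood at 128, 58.4 and 166 CPM in purified sham and 86.5, 61.1 and 60.3 CPM in purified injured libraries. On fish oil, Bcas1 was at 152, 167 and 95.5 CPM in sham and 169, 61.2 and 143 CPM in injured libraries. The 3 purified injured libraries all lay below purified sham 2 and 4 and above purified sham 3. Its log2 fold change was -0.76 ± 0.42 after injury on the purified diet (edgeR adjusted p = 0.778) and 0.84 ± 0.42 between diets in injured mice (adjusted p = 0.496), among the 3 smallest p-values of the set in both. Antisense transcripts Bcas1os1 and Bcas1os2 overlap 11.7% and 0.901% of its exon bases. Ppp1r14a (ENSMUSG00000037166.5, chr7:29289308-29293801), an inhibitor of myosin phosphatase, stood at 1.21, 0.319 and 2.01 CPM in purified sham and 1.1, 0.795 and 0.520 CPM in purified injured libraries. On fish oil, Ppp1r14a was at 1.54, 2.17 and 1.11 CPM in sham and 1.69, 0.649 and 1.04 CPM in injured libraries. Its highest library was 6.80 times its lowest, and it differed by -0.55 ± 0.58 after injury on the purified diet and -0.51 ± 0.57 on fish oil. Gsn (ENSMUSG00000026879.14, chr2:35256380-35307892), an actin-severing protein also made outside the lineage, stood at 28.4, 26.1 and 43.1 CPM in purified sham and 33.2, 47 and 34.5 CPM in purified injured libraries. On fish oil, Gsn was at 36.7, 44.4 and 31 CPM in sham and 34.2, 40.5 and 35.3 CPM in injured libraries. Purified injured 3 was its highest library and purified sham 3 its lowest, and it was above 0 after injury on the purified diet, at 0.23 ± 0.21. The actin-binding genes Ermn and Anln had log2 fold changes of -0.61 ± 0.45 and -0.61 ± 0.42 on the purified diet and of -0.01 each on fish oil, and the membrane protein gene Tmem88b -0.70 ± 0.45 and -0.23 ± 0.45. Together with Apod and Nkx6-2, Gsn made up the 3 members above 0 after injury on the purified diet.

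Other genes of the lineage were read beside the members. The 9 lineage factors, all transcription factors except Carhsp1, were mostly below 0 after injury. On the purified diet 8 of 9 were below 0 with a median of -0.14, and on fish oil 9 of 9 with a median of -0.27. None passed in either direction. The factors with the smallest p were Carhsp1 at -0.42 ± 0.28 and Zfp536 at -0.22 ± 0.19 on the purified diet, and Olig1 at -0.44 ± 0.28 and Tcf7l2 at -0.55 ± 0.38 on fish oil. The 11 precursor genes went the other way on the purified diet, with 10 above 0 and a median of 0.35, led by the matrix proteoglycan gene Vcan at 0.35 ± 0.17 and by Lhfpl3 at 0.94 ± 0.47, and 0 passed. Lhfpl3 stood at 25.9, 22.4 and 33.9 CPM in the purified sham and at 25.3, 92.6 and 39.8 CPM in the purified injured libraries, so that purified injured 3, the library with olfactory bulb transcripts, was its highest. Vcan was also highest there, at 25.5, 39.6 and 32.9 CPM in the purified injured libraries. Pdgfra, at 61.6, 51.9 and 106 CPM, was highest in injured 4, the library with most meningeal fibroblast transcripts, whereas Neu4 was at 6.09, 5.79 and 6.08 CPM. The part of these tissues in the precursor genes was not tested. On fish oil 8 of 11 precursor genes were below 0 with a median of -0.11, and the interaction was below 0 for 10 of 11 with a median of -0.31.

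**Figure D4:**
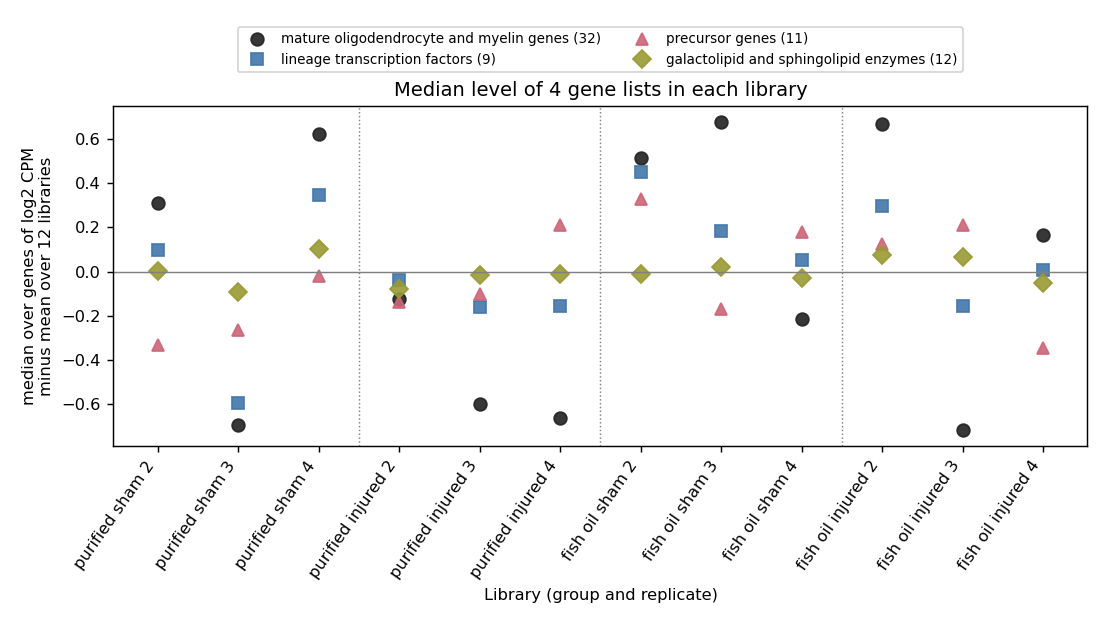
Median over the genes of 4 lists of log2 CPM minus each gene's mean over the 12 libraries, in each library. The 32 myelin genes (black circles) run from -0.72 to 0.68, the 9 lineage factors (blue squares) from -0.60 to 0.45, and the 12 genes of the lipid enzyme list (olive diamonds) stay between -0.09 and 0.10, while precursor genes (red triangles) follow another order.

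A further 29 oligodendrocyte-enriched genes outside the set were below 0 in 22 cases after injury on the purified diet (median -0.28) and in 26 on fish oil (median -0.16), with 0 passing in either direction. Ninj2, an adhesion molecule, stood at 1.64, 0.617 and 1.82 CPM in purified sham and 0.591, 0.550 and 0.580 CPM in purified injured libraries. These groups did not overlap, with 0.617 CPM in sham 3 beside 0.591 CPM in injured 2, and 6.68% of all genes were lower without overlap. The log2 fold change of Ninj2 was -1.24 ± 0.56 (edgeR adjusted p = 0.763), and the kinase gene Sgk2 was at -1.04 ± 0.44. On fish oil the smallest p-values were those of the deubiquitinase gene Josd2 at -0.57 ± 0.24 and the semaphorin receptor gene Plxnb3 at -0.60 ± 0.29. A list of 12 genes of galactolipid and sphingolipid metabolism in many cell types held enzyme genes except for the transfer protein gene Gltp. They were split, with 7 of 12 below 0 (median -0.06) on the purified diet and 6 of 12 (median 0.02) on fish oil, and 0 passed. The fatty acid elongase gene Elovl7 was at 0.73 ± 0.30 after injury on fish oil, and Galc, which removes galactose from galactolipids in lysosomes, at -0.25 ± 0.13. Neither passed, and the adjusted p of every gene in this comparison was 0.236 or higher by edgeR.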

How the data were processed

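Total RNA from mouse brain was sequenced in 12 libraries. The deposited table holds raw counts of reads, made by the authors with STAR 2.5.2a and featureCounts 1.4.3-p1 on mm10, per the submitters' processing notes. Which annotation, strand setting and rule for multi-mapping reads were used is not given in the sources used here. Overlapping genes may therefore share reads. Values of 2 (20514) outnumbered values of 1 (11222), so a count may be a mate, not a fragment. Symbols and positions came from GENCODE M21 on GRCm38, where 53274 of 53379 identifiers matched.

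Genes were filtered with filterByExpr (minimum count 10) and fitted with edgeR 4.0.16 in R 4.3.3 (TMM factors, robust quasi-likelihood, 4 group means, 8 residual degrees of freedom), with a threshold of 0.05 after Benjamini-Hochberg adjustment over 19252 genes. The biological coefficient of variation was 0.289, large beside counting error. SEs were derived from F statistics, CPM used TMM-scaled totals, and log2 CPM had a prior count of 2. No 2 replicates of a group agreed within sampling noise. Limma 3.58.1 (voom), DESeq2 1.42.0, other factors and filters, a replicate block and left-out libraries served as alternatives, and the procedure was tested on simulated data. For injury on the purified diet it called 49 of 100 genes simulated with a 2-fold change and 93 of 100 with a 4-fold change. It also called 8 unchanged genes, so a member that did not pass may still differ. The changed genes were drawn at random from tested genes and counts were independent, so recovery among the members themselves was not measured. The members and lists were chosen with earlier results of these data known. Values per library are given for 20 members, 15 listed by name and those with the 3 smallest p-values in the first 5 comparisons. Genes of other lists are named from their 2 smallest p-values in each comparison of injury, and not all of these are printed. Pdgfra and Neu4 were named outside this rule.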

Additional observations from a re-analysis of the deposited data

How the results depend on the processing

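In all 7 comparisons edgeR called 0 genes, and 0 members were called in any setting run. DESeq2 called 14 genes for injury on the purified diet, 37 for injury on fish oil, 17 for diet in sham and 186 for diet in injured mice, 21 for the interaction, 3 for the injury average and 99 for the diet average. Limma-voom called 1 gene for injury on fish oil and 2 for the injury average, and 1, 2 and, for the diet average, 2 with a correlation (-0.256) fitted between libraries whose names begin with the same number. Those are libraries 3 and 4 of each group. Without a filter on low counts 1 gene was called for the injury average and 2 for the diet average. Leaving out 1 library gave 0 to 7 genes for injury on fish oil (7 without fish oil injured 2), 0 to 83 for diet in injured mice (83 without purified injured 4, 14 without fish oil injured 2, 1 without purified injured 3) and 0 to 6 for the diet average (6 without purified injured 4). Without both purified injured 3 and fish oil sham 2 it was 1 for diet in injured mice. Of 29 log2 fold changes followed for single members, 6 changed sign in some setting. On the purified diet, left-out libraries moved Apod from -0.15 to 0.73 (-0.15 without purified injured 3 and fish oil sham 2), Car2 from -0.29 to 0.084 and Nkx6-2 from -0.59 to 0.68. On fish oil they moved Mbp from -0.51 to 0.066, Mog from -0.57 to 0.21 and Mal from -0.64 to 0.24 (0.022 without purified injured 3 and fish oil sham 2). The cause was not tested. With a replicate block the member medians were -0.57 and -0.30 for injury on the purified and fish oil diets, 0.26 and 0.55 for diet in sham and injured mice and 0.23 for the interaction, and 0 genes were called in each. Libraries with the same replicate number in different groups mostly did not deviate together: 3 of 18 pairs had a correlation above 0.1 (range -0.37 to 0.28). The main fit did not pair samples by these numbers. A pairing is not excluded, since differences in tissue content between libraries enter the same deviations.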

Other observations

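A list of 12 axon genes was read beside the set. They act at or near nodes and paranodes, where the myelin sheath ends, except the neurofilament genes Nefh and Nefm. On the purified diet 10 of 12 were below 0 after injury (median log2 fold change -0.26), and on fish oil 6 of 12 (median 0.05). None passed the edgeR test in either comparison, and at an unadjusted p under 0.05 there were 2 and 0 of them, against 1251 and 670 of all 19252 genes. The 6 excitatory neuron markers were below 0 in 5 cases on the purified diet (median -0.37) and above 0 in 6 of 6 on fish oil (median 0.26), and their interaction had a median of 0.66, with 0 passing. The part of excitatory neurons in the values of the axon genes was not tested. Nefm, a neurofilament subunit of large axons, stood at 210.0, 195 and 217 CPM in the purified sham libraries and 139, 89.4 and 114 CPM in the purified injured, so that these groups did not overlap (6.68% of all genes were lower without overlap), with a log2 fold change of -0.86 ± 0.31 (edgeR adjusted p = 0.76). Purified injured 3, its lowest library, was also the lowest for the excitatory neuron markers, at a sum of 2702 CPM. In the fish oil groups Nefm stood at 199, 209 and 152 CPM in sham and 186, 105 and 309 CPM in injured libraries, and the interaction was 0.96 ± 0.44 (edgeR adjusted p = 0.82). Ank3, the ankyrin that anchors sodium channels at nodes, was at -0.28 ± 0.12 on the purified diet, also without overlap, with an interaction of 0.39 ± 0.16. The interaction was above 0 for 10 of the 12 genes, with a median of 0.31, and 0 passed.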
